A study of Mus musculus with 6 samples.

Results

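Solute carriers are membrane proteins that move ions, amino acids, sugars, phosphate, vitamins and organic ions across cell membranes, and each numbered family shares an ancestry and a broad class of cargo. In the mature kidney they set what the nephron takes back from the filtrate. Proximal tubule cells carry most of the apical carriers for phosphate, glucose and amino acids and the basolateral carriers for organic anions and cations, while the loop of Henle and the distal tubule carry the cation-chloride cotransporters on which diuretics act. The same families also hold housekeeping carriers that nearly every dividing cell uses to bring in amino acids, control its volume and hold its pH. At E13.5 the mouse kidney is made mostly of branching ureteric bud, cap mesenchyme and stroma, and its first tubules are only beginning to form.

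The genes described here are the members of 16 solute carrier families (Slc1, Slc3, Slc4, Slc5, Slc6, Slc7, Slc8, Slc9, Slc12, Slc13, Slc20, Slc22, Slc23, Slc26, Slc34 and Slc47), chosen by gene name alone, with a value in every library. There were 129 of them among 21553 genes with values. Gene names with a letter after the number were not taken. The libraries came from kidneys of 3 Fat4-/- and 3 Fat4+/+ embryos at E13.5, on a C57BL6/6 background after 6 backcrosses, from 1 pregnant female, and each library pooled both kidneys of its embryo, without most of the ureter. Fat4 is a giant cadherin that the series' title places in the stroma, acting with Dachsous1/2 to limit the nephron progenitor pool. No other allele or treatment was given for either genotype, and the part of Fat4 removed in the mutants was not stated in the labels. Mutant RNA still held 45.7% of the wildtype Fat4 level. The p-values measure the spread between embryos of that 1 litter. The whole kidney was sampled, so fewer cells of a type and less RNA per cell cannot be told apart.

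Levels were given as cRPKM, which is RPKM after a correction by the authors and scales reads by gene length and library size, so genes can be compared per length. Fat4 was at 16.74, 15.69 and 16.83 cRPKM in wildtype embryos 1 to 3 and at 7.82, 7.20 and 7.49 in the mutants (log2 fold change -1.03, SE 0.0476, limma adjusted p = 0.000155). Read totals are unknown. Steps between low values gave relative depths from 0.904 to 1.04, with wildtype embryo 1 set to 1. These are rough estimates. They accounted for 17 of 35 ratios of low values in wildtype embryo 3 and for 22 of 32 in mutant embryo 2. Expression of the Y-linked genes Uty, Kdm5d, Ddx3y and Eif2s3y summed to 65.27 to 72.97 cRPKM in the 3 wildtype libraries and to 69.6 in mutant embryo 1, but to 0.08 and 0.15 in mutant embryos 2 and 3, so Y-linked expression and genotype are partly confounded in every comparison here. Wildtype embryo 3 was the highest of the 6 for the sum of the listed proximal tubule markers, at 54.5 cRPKM against 42.86 and 42.47 in the other wildtypes and 31.52 to 37.41 in the mutants. The listed gene Jag1 alone gave 30.12 of the 54.5 in wildtype embryo 3 and 23.09 of the 42.86 in wildtype embryo 1. Its values overlap between the genotypes, so the sum rests largely on 1 gene.

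By level the genes fell into 3 tiers. The minimum for testing, 1 cRPKM on average, was reached by 51. Another 32 lay from 0.1 to under 1 cRPKM and 46 under 0.1, of which 3 were listed at 0 in every library. Families differed in where they stood. Both Slc20 genes passed 1 cRPKM, as did 6 of 9 in Slc12 and 6 of 10 in Slc4, while none of the Slc13, Slc34 and Slc47 genes did. The Slc13 carriers take up citrate and other dicarboxylates or sulfate, the Slc34 carriers bring in phosphate at the apical membrane, and the Slc47 carriers extrude organic cations. In Slc5, the sodium-glucose cotransporter family, 2 of 11 passed, and these were the myo-inositol carrier Slc5a3 and the multivitamin carrier Slc5a6 rather than a glucose carrier.

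**Figure D1:**
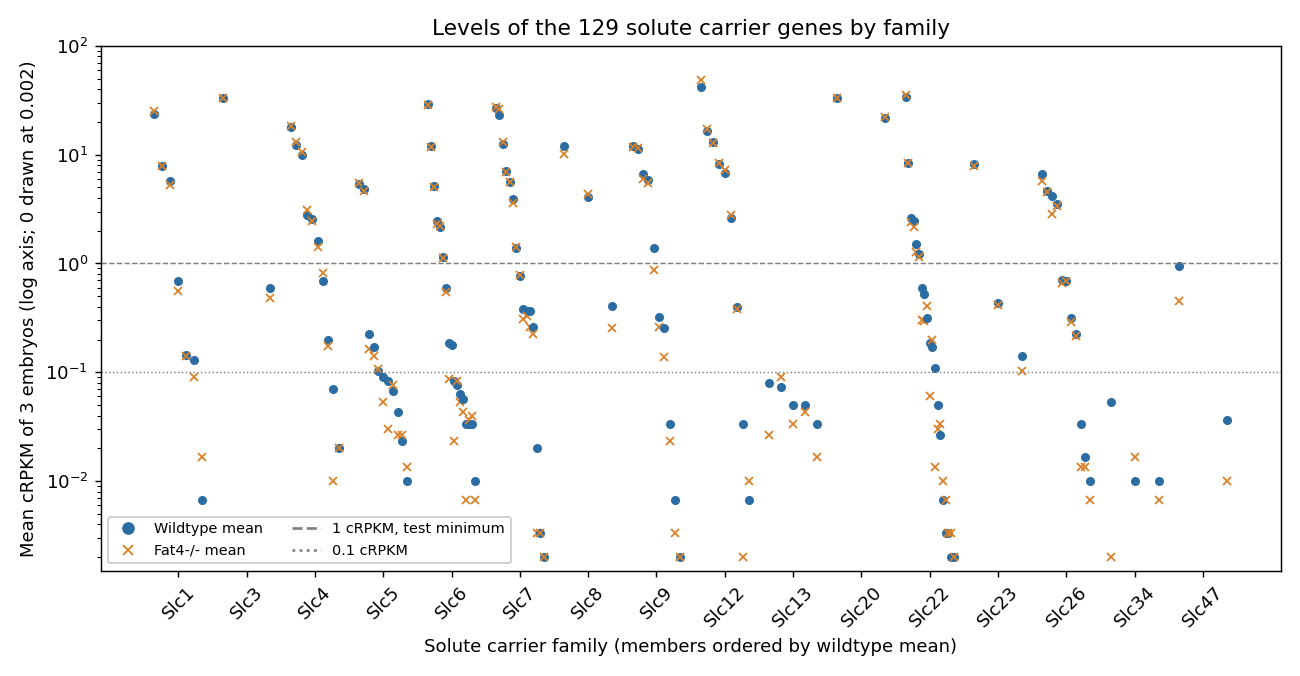
Mean cRPKM of 3 embryos per genotype (y axis, logarithmic, with 0 drawn at 0.002) for each of the 129 genes, grouped by family (x axis) and ordered within a family by wildtype mean; circles are wildtype, crosses Fat4-/-, and the dashed and dotted lines mark 1 and 0.1 cRPKM. Circles and crosses nearly coincide above 1 cRPKM, and Slc13, Slc34 and Slc47 have no gene above it.

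The highest wildtype level belonged to Slc12a2, the sodium-potassium-chloride cotransporter NKCC1 that loads chloride into cells and restores cell volume. It stood at 42.0 ± 0.622 cRPKM (SD, n = 3). The next 3 were Slc22a17, a receptor for lipocalin-2, at 33.8 ± 1.91, the sodium-phosphate cotransporter Slc20a1 at 33.6 ± 1.03 and Slc3a2 at 32.9 ± 0.612 cRPKM, and these 3 did not differ beyond their spread. The taurine carrier Slc6a6 followed at 29.1 ± 2.09 cRPKM. Then came the amino acid carriers Slc7a6 at 27.1 ± 0.611, Slc1a5 at 23.4 ± 1.26 and Slc7a5 at 23.02 ± 2.88, the phosphate carrier Slc20a2 at 21.7 ± 0.572 and the anion exchanger Slc4a2 at 18.1 ± 0.546 cRPKM. The potassium-chloride cotransporters Slc12a7 and Slc12a4 closed the top 12 at 16.7 ± 0.995 and 13.1 ± 0.0808 cRPKM. Together these 12 genes held 57.2% of the summed wildtype level of all 129. Most of them are carriers of volume control, pH, amino acid and phosphate supply.

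Of the 51 tested carriers 1 rose and 1 fell in the mutants. Their median log2 fold change, mutant minus wildtype on the log2(cRPKM + 1) scale, was -0.02, against -0.01 over all 12315 tested genes. The median absolute log2 fold change was 0.05 for the carriers and 0.05 for all tested genes. A fold change above 0 was seen for 22 and below 0 for 29 (background 56.8%). In the limma fit across all genes 1 of the 51 passed upwards at an adjusted p under 0.05, where the background share of all tested genes was 0.552%, and 1 passed downwards, where it was 0.877%. At an unadjusted p under 0.05 there were 3 higher (background 5.08%) and 5 lower (background 7.97%). All mutants lay above all wildtypes for 5 of 51 (background 7.23%) and below them for 7 of 51 (background 11.0%). These counts are near the background shares.

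**Figure D2:**
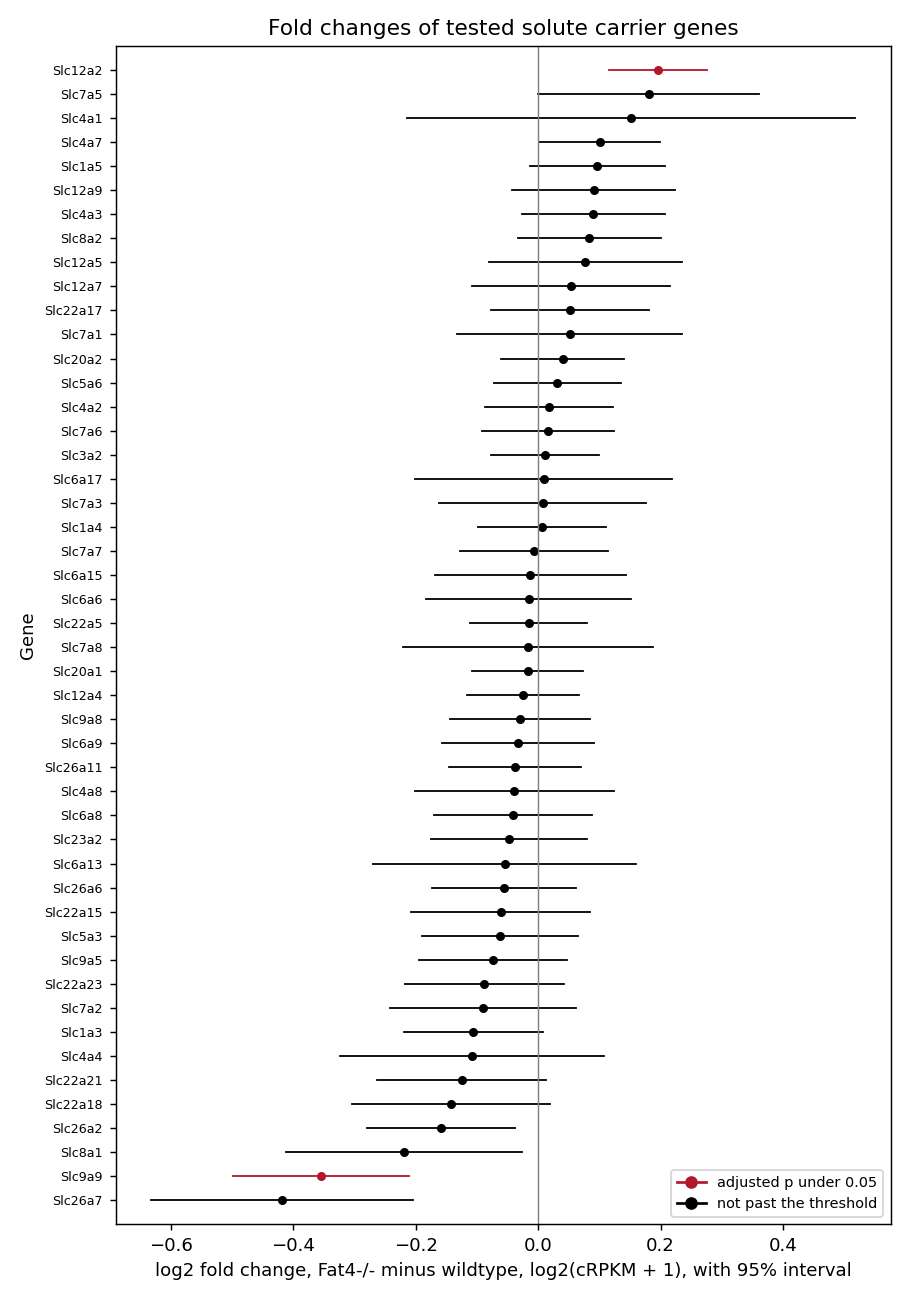
Log2 fold change, Fat4-/- minus wildtype on the log2(cRPKM + 1) scale (x axis), with its 95% interval from limma, for the tested genes (y axis), 3 of them not shown, ordered by size; red marks an adjusted p under 0.05. Slc12a2 at 0.20 and Slc9a9 at -0.35 are marked, and most of the other points lie close to 0.

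Slc12a2 rose. It was at 41.52, 41.71 and 42.68 cRPKM in wildtype embryos 1 to 3 and at 48.71, 48.01 and 47.94 in mutant embryos 1 to 3. The 3 mutants were all above the 3 wildtypes, with a gap larger than the spread in either genotype. The mean went from 42.0 ± 0.622 to 48.2 ± 0.426 cRPKM (SD, n = 3), an increase of 14.9%, with a log2 fold change of 0.20 (SE 0.0352, limma adjusted p = 0.0382). The call was lost without any 1 of the 6 libraries (adjusted p 0.0740 to 0.132), while the fold change stayed between 0.19 and 0.21. With the Y-linked score as a covariate the fold change was 0.21 (adjusted p = 0.489).

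Slc9a9, an endosomal sodium-proton exchanger that helps set the pH of recycling endosomes, fell. Wildtype embryos 1 to 3 were at 1.43, 1.31 and 1.46 cRPKM and mutant embryos 1 to 3 at 0.92, 0.83 and 0.88. The genotypes did not overlap. Its mean over the 6 libraries, 1.14 cRPKM, lay just above the minimum for testing, which it passed only through the wildtypes, since all 3 mutants were under 1 cRPKM. The mean went from 1.40 ± 0.0794 to 0.877 ± 0.0451 cRPKM (SD, n = 3). This was 62.6% of wildtype, with a log2 fold change of -0.35 (SE 0.0624, limma adjusted p = 0.0370). This gene lies on chromosome 9 (94669909 to 95230445, GRCm38). Its call was also lost without any 1 library (adjusted p 0.0606 to 0.139), with the fold change between -0.38 and -0.34. With the Y-linked score as a covariate it was -0.32 (adjusted p = 0.566), and with a pseudocount of 0.1 it was -0.62 (adjusted p = 0.0386).

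**Figure D3:**
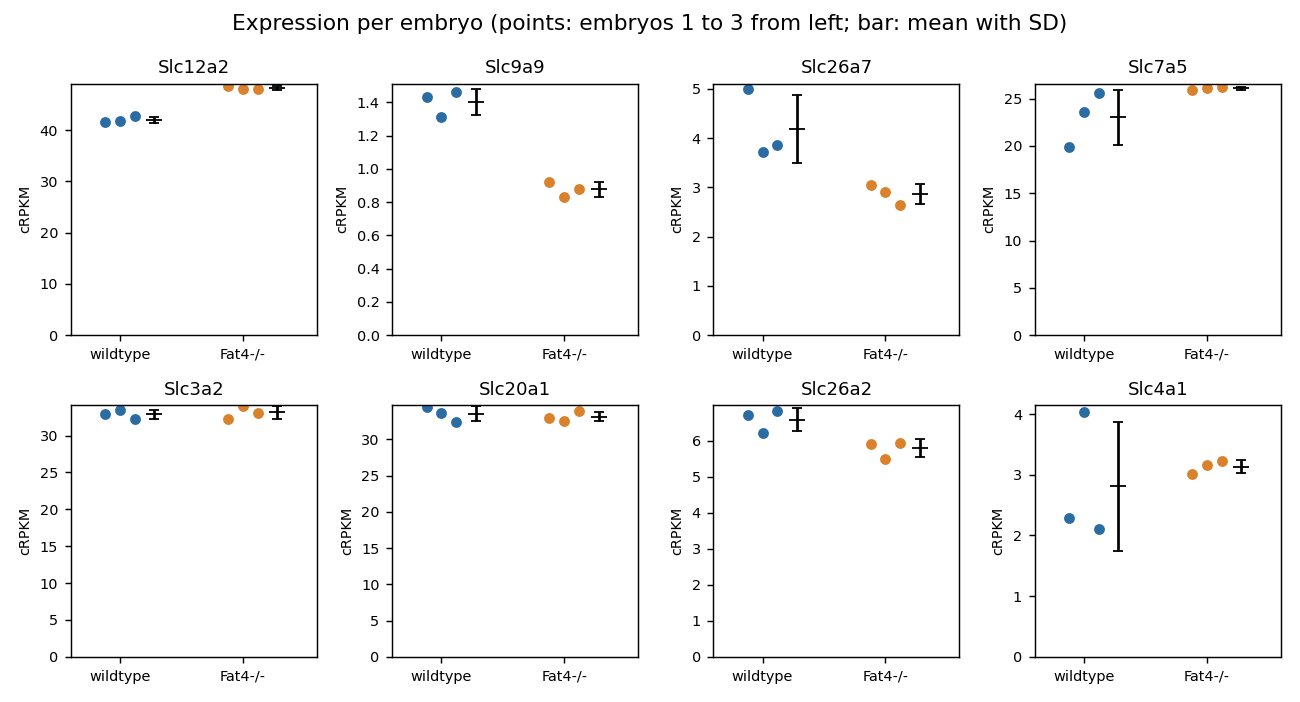
cRPKM (y axis, from 0) in each embryo for 8 carriers, with wildtype embryos 1 to 3 and Fat4-/- embryos 1 to 3 as points from left to right and the mean with SD as a bar beside them. The genotypes separate for Slc12a2, Slc9a9, Slc26a7, Slc7a5 and Slc26a2 and overlap for Slc3a2, Slc20a1 and Slc4a1.

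Slc26 carriers exchange chloride, bicarbonate, sulfate, iodide or oxalate, and 11 of them were measured. All 4 tested genes had fold changes below 0, and none passed over all genes. Slc26a7, a chloride-bicarbonate exchanger and chloride channel that the mature collecting duct uses, was at 4.99, 3.72 and 3.86 cRPKM in wildtype embryos 1 to 3 and at 3.04, 2.91 and 2.64 in the mutants. Every mutant value lay below every wildtype value, and wildtype embryo 1 stood above the rest. The mean was 4.19 ± 0.696 in wildtype against 2.86 ± 0.204 cRPKM in mutants (SD, n = 3), with a log2 fold change of -0.42 (SE 0.0933, limma adjusted p = 0.0784). Without wildtype embryo 1 it was -0.31. The sulfate carrier Slc26a2, needed for sulfation of cartilage and matrix proteoglycans, was at 6.72, 6.21 and 6.82 against 5.92, 5.50 and 5.95 cRPKM, again without overlap (log2 fold change -0.16, limma adjusted p = 0.240). Slc26a11 and Slc26a6 were at 4.67 and 3.52 cRPKM in wildtype against 4.52 and 3.35 in mutants. The summed level of the family ran from 19.9 to 22.05 cRPKM in wildtype and from 17.9 to 18.92 in mutant libraries.

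The Slc12 family moves chloride with sodium or potassium and held the largest summed level, at 89.9 ± 1.89 cRPKM in wildtype against 97.4 ± 3.02 in mutant libraries (SD, n = 3). Slc12a2 alone made up 46.7% of the wildtype sum, so the sum largely follows that gene. Slc12a4 and Slc12a7, 2 of the potassium-chloride exporters that oppose NKCC1, did not pass. Slc12a7 was at 15.62, 16.85 and 17.59 cRPKM in wildtype against 17.40, 15.73 and 19.02 in mutant embryos, which overlap. The 95% interval of the fold change of Slc12a4 ran from -0.12 to 0.07. Slc12a5, a potassium-chloride exporter known from neurons, was at 2.61 cRPKM in wildtype against 2.81 in mutants. The diuretic targets of the nephron were barely present. Slc12a1, the loop cotransporter NKCC2, was listed at 0.02, 0.01 and 0.07 cRPKM in wildtype embryos and at 0 in each mutant, and Slc12a3, the distal cotransporter NCC, was at no more than 0.02 in any library.

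The Slc3 proteins are single-pass heavy chains that pair with Slc7 light chains to form amino acid exchangers. Slc3a2, the heavy chain 4F2hc, was at 32.93, 33.46 and 32.24 cRPKM in wildtype against 32.30, 34 and 33.12 in mutants, with a 95% interval of the log2 fold change from -0.08 to 0.10. Of its partners, Slc7a6 was at 27.1 and 27.4 cRPKM, Slc7a8 at 7.13 and 7.01 and Slc7a7 at 5.65 and 5.62 in wildtype and mutants. Slc7a5, the light chain LAT1 that imports large neutral amino acids such as leucine, was at 19.90, 23.57 and 25.58 cRPKM in wildtype and at 25.88, 26.18 and 26.21 in mutants. The mutants were all above the wildtypes, with wildtype embryo 3 close to them (log2 fold change 0.18, limma adjusted p = 0.382). Without wildtype embryo 1 its fold change was 0.08. Slc1a5, which exchanges glutamine and other neutral amino acids, was likewise at 22.08, 23.67 and 24.56 against 24.73, 24.67 and 25.95 cRPKM (log2 fold change 0.10, adjusted p = 0.455), and 0.06 without wildtype embryo 1. The heavy chain of the proximal tubule, Slc3a1, and its light chain Slc7a9, whose mutations cause cystinuria, were both under 1 cRPKM in every library. Slc3a1 was at 0.60, 0.43 and 0.76 in wildtype against 0.41, 0.49 and 0.55 in mutants.

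Among carriers of other amino acids and amines, the glial-type glutamate carrier Slc1a3 was at 6.12, 5.62 and 5.59 cRPKM in wildtype against 5.39, 5.28 and 5.21 in mutants (log2 fold change -0.11, limma adjusted p = 0.420). Those values did not overlap, and the fold change was -0.07 without wildtype embryo 1. The creatine carrier Slc6a8 and the glycine carrier Slc6a9 were at 12.1 and 5.18 cRPKM in wildtype against 11.7 and 5.04 in mutants. The cationic amino acid carrier Slc7a1 was at 12.5 and 13.02 cRPKM. For Slc6a6 the 95% interval of the log2 fold change ran from -0.18 to 0.15. No amino acid carrier of these families passed the threshold.

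Apart from Slc9a9, no carrier of acid-base balance in Slc4 or Slc9 passed. Slc4a7, a sodium-bicarbonate cotransporter that extrudes acid, was at 12.53, 11.81 and 12.32 cRPKM in wildtype against 13.66, 12.91 and 12.95 in mutants, without overlap (log2 fold change 0.10, limma adjusted p = 0.377). Slc4a2 was at 18.1 cRPKM in wildtype and 18.3 in mutant kidneys. The sodium-bicarbonate cotransporter Slc4a4, which the proximal tubule uses to return bicarbonate to blood, was at 1.64, 1.32 and 1.88 in wildtype against 1.57, 1.22 and 1.47 cRPKM in mutants. Slc9a3, the apical proton exchanger of the proximal tubule, did not exceed 0.01 cRPKM in any library.

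Slc4a1, the anion exchanger band 3 of red cells and of acid-secreting cells of the collecting duct, was at 2.29, 4.03 and 2.11 cRPKM in wildtype against 3.02, 3.16 and 3.22 in mutant embryos. Wildtype embryo 2 was the highest of all and the groups overlap (log2 fold change 0.15, 95% interval -0.21 to 0.52). The fold change was 0.37 (limma adjusted p = 0.0514) without wildtype embryo 2, 0.02 without wildtype embryo 3 and 0.06 without wildtype embryo 1. Wildtype embryo 2 also had the highest summed level of erythroid markers among the wildtypes, with 1801.49 cRPKM against 1365.67 and 924.94, while the mutants were at 1160.03, 1861.19 and 1309.94. None of the 7 tested erythroid markers passed, with Slc4a1 among them. Their part in the level of Slc4a1 was not tested.

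No carrier of calcium, phosphate or vitamin C passed. The sodium-calcium exchanger Slc8a1 was at 11.53, 10.85 and 13.36 cRPKM in wildtype against 11.14, 9.27 and 9.85 in mutants, with mutant embryo 1 inside the wildtype range (log2 fold change -0.22, limma adjusted p = 0.312). It was -0.14 without wildtype embryo 3 and -0.08 with the Y-linked score as a covariate. Slc8a2, its relative, was at 4.09 and 4.40 cRPKM. The phosphate carriers Slc20a1 and Slc20a2 had 95% intervals from -0.11 to 0.07 and from -0.06 to 0.14. Slc23a2, the widespread vitamin C carrier, was at 8.19 ± 0.480 in wildtype against 7.89 ± 0.397 cRPKM in mutants (SD, n = 3), and Slc23a1, its epithelial relative, was at 0.31 to 0.51 in all 6 libraries.

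The Slc22 family, the largest with 19 genes, carries organic anions, organic cations and carnitine. Slc22a17 made up 64.9% of its wildtype sum, and the sum did not separate the genotypes (51 to 53.82 cRPKM in wildtype, 49.79 to 53.76 in mutants). Slc22a5, the carnitine carrier, was at 8.42 and 8.32 cRPKM. Slc22a21, a close relative of Slc22a5 and a neighbour of it on chromosome 11, was at 2.66, 2.31 and 2.42 cRPKM in wildtype against 2.26, 2.16 and 2.10 in mutants, without overlap (log2 fold change -0.13, adjusted p = 0.433). Slc22a23 was at 2.61 and 2.39 cRPKM, again without overlap, while the imprinted gene Slc22a18 was at 1.42, 1.55 and 1.55 against 1.13, 1.25 and 1.44, with 1 mutant inside the wildtype range. Under quantile normalisation the fold changes of Slc22a21, Slc22a23 and Slc22a18 were -0.06, -0.03 and -0.08, against -0.13, -0.09 and -0.14 in the deposited scaling.

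The renal drug and urate carriers of this family lay under 1 cRPKM on average. Slc22a8, the basolateral organic anion carrier OAT3, was at 0.52, 0.58 and 0.70 cRPKM in wildtype embryos 1 to 3 and at 0.30, 0.29 and 0.32 in the mutants. Slc22a6, the related carrier OAT1, was at 0.13, 0.18 and 0.25 in wildtype and at 0.06 in each mutant. Each mutant value of both genes was below each wildtype value, and wildtype embryo 3 was the highest for both. Slc22a12, the apical urate exchanger URAT1, was at 0.06, 0.07 and 0.20 in wildtype and at 0.02, 0 and 0.02 in mutants. Slc22a3, an organic cation carrier, was at 0.58, 0.41 and 0.57 against 0.29, 0.35 and 0.25 cRPKM. The organic cation carrier Slc22a2 did not exceed 0.06 cRPKM in any library. Slc22a8 and Slc22a6 are neighbours on chromosome 19 (8591254 to 8611835 and 8618039 to 8628299, GRCm38), 6204 bases apart and on the same strand.

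The other low carriers with separate genotypes were mostly epithelial. Slc47a1, the extruder MATE1 that passes organic cations into urine, was at 0.83, 0.76 and 1.28 cRPKM in wildtype and at 0.46, 0.35 and 0.55 in mutants. The neutral amino acid carrier Slc6a19 (B0AT1), defective in Hartnup disorder, was at 0.17, 0.19 and 0.20 against 0.08, 0.09 and 0.09. Its neighbour Slc6a18 on chromosome 13 was at 0.07, 0.05 and 0.13 against 0.02, 0.02 and 0.03. The epithelial proton exchanger Slc9a2 was at 0.25, 0.21 and 0.30 against 0.15, 0.11 and 0.15 cRPKM. The sodium-calcium exchanger Slc8a3, best known from brain and muscle, was at 0.45, 0.43 and 0.35 against 0.25, 0.30 and 0.21, and the glutamate carrier Slc1a6, known from Purkinje cells, at 0.70, 0.67 and 0.70 against 0.52, 0.60 and 0.56. Slc34a1, the main phosphate carrier of the mature proximal tubule, was at 0.03, 0.02 and 0.11 in wildtype and listed at 0 in every mutant. In the opposite direction Slc4a11 was at 0.61, 0.76 and 0.71 against 0.79, 0.83 and 0.82 cRPKM.

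**Figure D4:**
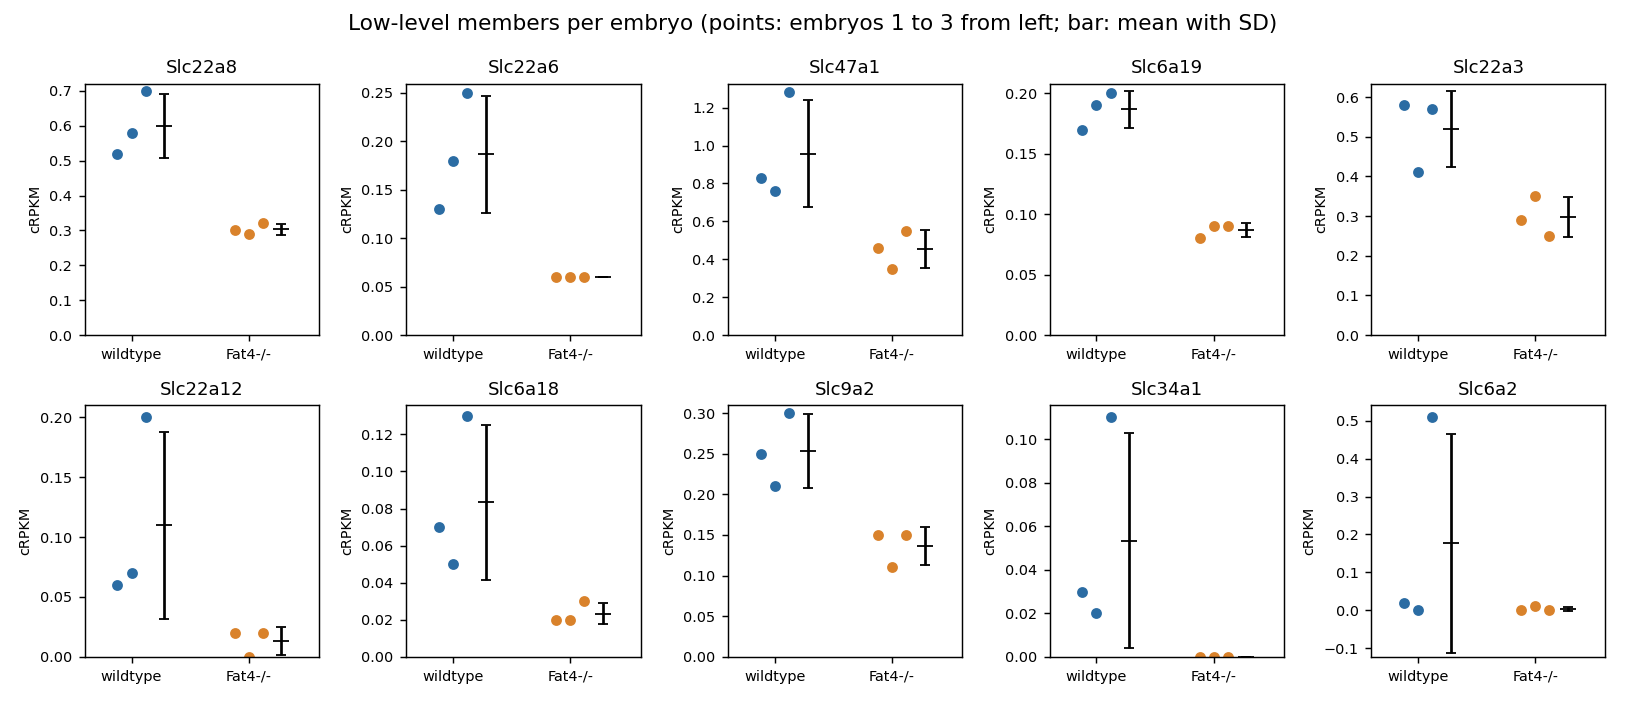
cRPKM (y axis) in each embryo for 10 carriers with a mean under 1 cRPKM, with wildtype embryos 1 to 3 and Fat4-/- embryos 1 to 3 as points from left to right and the mean with SD as a bar. All mutants lie below all wildtypes for every gene but Slc6a2, which is high in wildtype embryo 3 alone.

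Counted over the tier from 0.1 to under 1 cRPKM, all mutants lay below all wildtypes for 8 of 32 carriers, against a background of 15.7% among 3029 genes at that level, and above them for 1 of 32 (background 4.19%). The mutant mean was the lower for 26 of 32, against a background of 64.4%. Under 0.1 cRPKM, where values rest on very few reads, all mutants were below all wildtypes for 8 of 43 carriers listed above 0 somewhere (background 4.51%) and above them for none (background 1.77%), and the mutant mean was the lower for 26 of 43 (background 55.2%). Among them were Slc22a12, Slc6a18, Slc34a1, Slc12a1, Slc13a2, Slc4a9 and Slc7a13. Without wildtype embryo 3 the mutants lay below both other wildtypes for 10 of 31 in the upper of these tiers (background 21.8%), where the mutant mean was the lower for 22 (background 63.3%), and for 11 of 44 in the lower (background 8.89%). Of 51 transporters of mature nephron segments listed for this purpose, 23 were tested. Of these, 12 had fold changes below 0 (background 56.8%), the median was -0.0065, and 1 was called, Slc12a2, as higher (background 0.552%). The other 28 were too low to test and are among the low carriers counted above. All mutants were below all wildtypes for 5 of the 10 from 0.1 to under 1 cRPKM (background 15.7%) and for 6 of the 18 under 0.1 (background 4.51%), and above them for none.

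These genes were below the minimum for testing, so a second fit was added after their values were seen, from 0.1 cRPKM upwards with a pseudocount of 0.1 and 15344 genes. Of the 83 carriers in this fit, 2 were called lower, on a background of 0.776% over all its genes. They were Slc9a9 and, as the 1 low carrier, Slc22a8 (log2 fold change -0.79, SE 0.137, limma adjusted p = 0.0432). Slc12a2 was the 1 of 83 carriers called higher (background 0.424%). Slc47a1 was at -0.92 (limma adjusted p = 0.0945), Slc22a6 at -0.82 (0.107), Slc6a19 at -0.62 (0.118), Slc22a3 at -0.64 (0.134), Slc8a3 at -0.53 (0.182), Slc9a2 at -0.58 (0.182) and Slc1a6 at -0.26 (0.339), none of them past the threshold. Slc22a6 and Slc6a19 met the minimum of this fit only through the wildtypes, since all their mutants were under 0.1 cRPKM. The direction of these 2 genes was therefore tied to their being tested. The call on Slc22a8 was lost without any 1 library (adjusted p 0.0834 to 0.153). Without wildtype embryo 3 its fold change was -0.69, and that of Slc47a1 was -0.71.

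The listed markers of the proximal tubule had lower means in the mutants, though values of Jag1, Ass1, Cubn and Fbp1 overlapped between the genotypes. Slc34a1, on this list too, is a carrier already described. Of 10 listed, 6 were tested, all 6 had fold changes below 0 (background 56.8%), and 1 passed as lower (background 0.877%), the nuclear receptor gene Hnf4a. It was at 1.90, 1.57 and 3.79 cRPKM in wildtype against 0.39, 0.29 and 0.61 in mutants (log2 fold change -1.21, limma adjusted p = 0.0352), and its call was lost without wildtype embryo 1, wildtype embryo 3 or any 1 mutant, with equal summed cRPKM, with no filter and with the Y-linked covariate. Hnf4a and the listed marker Lrp2 met the minimum for testing only through the wildtypes, since all mutants were under 1 cRPKM for both. Their direction was therefore tied to their being tested. The listed marker Fbp1 was at 0.03 cRPKM or less in all 6 libraries. Of the loop and distal list 2 of 7 measured markers were tested, Pou3f3 and Sim1, and neither passed. The list summed to 20.84 to 28.22 cRPKM in wildtype against 16.79 to 18.67 in mutants. Pou3f3 and Sim1 made up most of it, at 13.13 and 6.02 of the 20.84 in wildtype embryo 1. Of the other 5, 3 lay from 0.1 to under 1 cRPKM and 2 under 0.1. All mutants lay below all wildtypes for Irx1 and Irx2 in the upper tier (background 15.7%). The same held for Slc12a1 in the lower (background 4.51%), which is itself a carrier counted above. Umod and Slc12a3 overlapped, with means of 0.207 and 0.00667 cRPKM in wildtype against 0.253 and 0.01 in mutants. The part of these markers in the levels of the low carriers was not tested.

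Slc6a2, the noradrenaline carrier of sympathetic neurons and chromaffin cells, was at 0.51 cRPKM in wildtype embryo 3 and at no more than 0.02 in the other 5 libraries. In that library the catecholamine enzyme genes Th and Dbh were at 1.41 and 3.46 cRPKM, against 0.37 and 0.65 in wildtype embryo 1 and at most 0.08 and 0.10 in the other 4. Over the whole nerve and neural crest list, 8 genes with 5 tested and none called, the summed level was 23.35 to 31.54 cRPKM in wildtype against 25.87 to 28.25 in mutants. Outside that embryo the values of Slc6a2 overlap between the genotypes.

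Carriers work with pumps, scaffolds and kinases, and a list of 51 such genes was read in the same fit. Of 48 with values 36 were tested, 6 fell and none rose, against backgrounds of 0.877% and 0.552%, with 29 fold changes below 0 (background 56.8%) and a median of -0.18. The genes that fell were Atp1b1 and Fxyd2, a subunit and a regulator of the sodium pump that powers most of these carriers, the membrane-bound carbonic anhydrase gene Car4, Emb, a chaperone of monocarboxylate carriers, Pdzk1ip1, a partner of the scaffold PDZK1, and Hnf4a. Fxyd2 and Hnf4a met the minimum for testing only through the wildtypes, since all their mutants were under 1 cRPKM. The same held for Lrp2 and Aqp3, which are among the 29 below 0. With a minimum of 3 cRPKM, Atp1b1, Car4, Emb and Pdzk1ip1 were still called. Atp1b1 was at 17.37, 17.51 and 25.35 cRPKM in wildtype against 11.11, 11.14 and 12.02 in mutants (log2 fold change -0.74, limma adjusted p = 0.0332), with wildtype embryo 3 again the highest. Car4 was at 11.12, 11 and 12.70 against 8.05, 8.24 and 8.57 cRPKM (log2 fold change -0.44, adjusted p = 0.0191). Of the 6 calls, 4 were kept without wildtype embryo 3, with Fxyd2 and Hnf4a lost, while 3 and 4 were kept without wildtype embryos 1 and 2. None was kept without any 1 of the mutants, with the Y-linked score as covariate or with no filter. Quantile normalisation kept 5, with Fxyd2 lost, and equal summed cRPKM kept 4, with Atp1b1 and Hnf4a lost. Tmem27, which carries Slc6a19 to the apical membrane, was under 1 cRPKM on average, at 1.20, 1.20 and 1.92 in wildtype against 0.44, 0.45 and 0.76 in mutants. The scaffold gene Slc9a3r1 and the kinase gene Wnk4, which acts on Slc12 cotransporters, had fold changes above 0 and did not pass (0.17 and 0.21, adjusted p = 0.303 and 0.0764). Stk39 and Oxsr1, the kinases that phosphorylate NKCC1 directly, were at 17.4 and 24.0 cRPKM in wildtype against 16.8 and 24.6 in mutants (adjusted p = 0.720 and 0.766).

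The fold changes of the 3 carriers with the smallest p values were recomputed under each alternative. Slc12a2 kept a fold change between 0.19 and 0.21 in all 16 of them, and passed the threshold in 5. Slc9a9 stayed below 0 in the 15 that tested it and passed in 4. Slc26a7 stayed below 0 in all 16 and passed in 1.

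**Figure D5:**
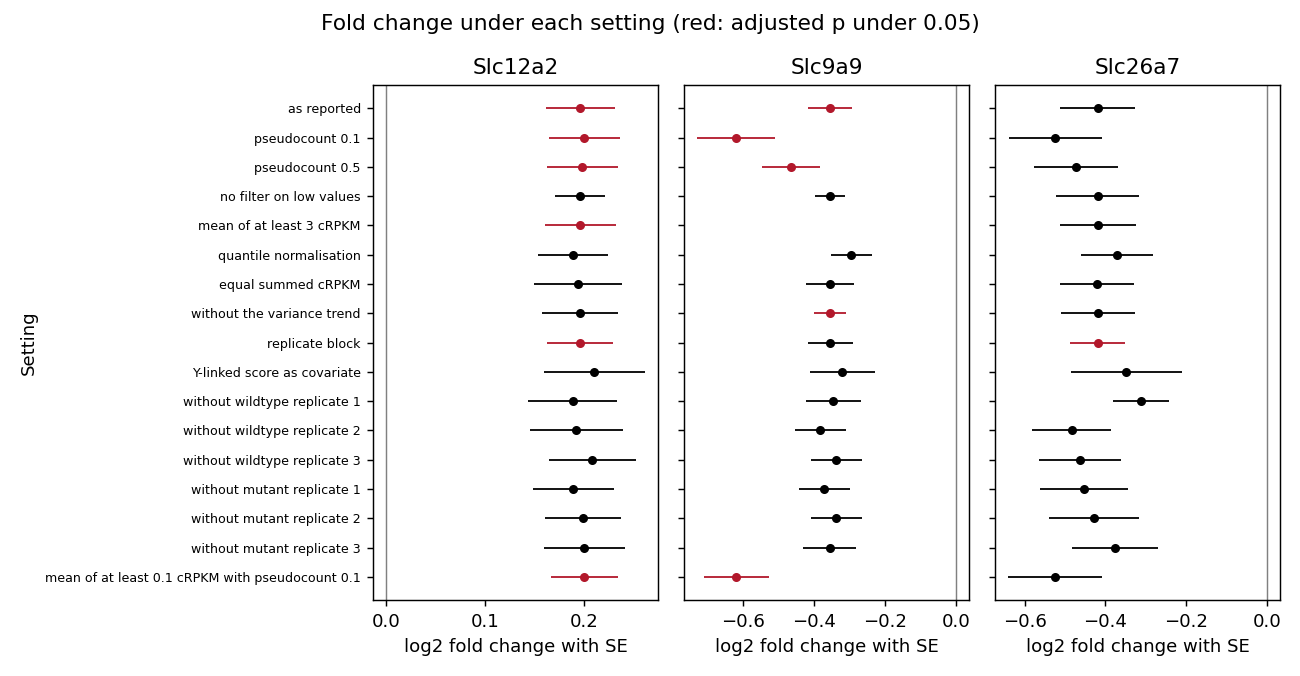
Log2 fold change, Fat4-/- minus wildtype (x axis), with its SE for Slc12a2, Slc9a9 and Slc26a7 under each setting (y axis); red marks an adjusted p under 0.05. Points keep their side of 0 throughout, and none is red with a library left out or with the Y-linked score as covariate.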

How the data were processed

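RNA from the kidneys of 6 mouse embryos was sequenced, 3 per genotype. The authors deposited 1 table of cRPKM values, corrected RPKM per gene, per the file headers; no label says what the correction was. Bowtie and the mm9 build are named in the submitters' processing notes, without versions. Positions were joined by Ensembl identifier from GENCODE's GRCm38 annotation.

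The 12315 genes averaging 1 cRPKM or more were fitted together in limma 3.58.1 (R 4.3.3), after adding 1 and taking log2, with a variance trend, no covariate and Benjamini-Hochberg adjustment, and called at an adjusted p under 0.05. Fold changes on this scale understate those of low genes. The table holds no counts, so no intervals for depth are given. A fit from 0.1 cRPKM with a pseudocount of 0.1 was added after the data were seen. The procedure was tested on simulated data. Alternatives were other pseudocounts, filters and scalings, no variance trend, a replicate block, a Y-linked score as covariate and each library left out.

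The solute carriers and the gene lists were chosen with earlier results of these data known. Named genes are the 10 with the smallest p in each direction, genes listed by name for the nephron, transport partners and markers, and the highest by level. Slc22a3, Slc8a3, Slc1a6, Slc7a13, Slc4a11, Slc6a2, Slc6a8, Slc6a9, Slc7a1, Slc22a5, Slc26a11 and Dbh were named after their values were seen. Some genes are not reported here. The other marker lists read were progenitor, ureteric, stromal, endothelial, macrophage, adrenal cortex and liver genes.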

Additional observations from a re-analysis of the deposited data

How the results depend on the processing

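The 1 carrier called higher dropped to 0 with no filter, quantile normalisation, equal summed cRPKM, no variance trend or the Y-linked covariate, and to 0 without any 1 library. The 1 called lower became 0 with no filter, a minimum of 3 cRPKM (where Slc9a9 is not tested), quantile normalisation, equal summed cRPKM, the Y-linked covariate or any 1 library left out, and 2 in the fit from 0.1 cRPKM. Over all genes, 68 higher and 108 lower became 10 and 22 with no filter, 41 and 60 with equal summed cRPKM and 1 and 1 with the Y-linked covariate, and the lower 70 at a minimum of 3 cRPKM. With 1 library left out they ran from 7 to 53 and from 17 to 87. The count of 1 low carrier called in the fit from 0.1 cRPKM became 0 with quantile normalisation, equal summed cRPKM, the Y-linked covariate, a pseudocount of 1 or any 1 library left out. Without the variance trend Slc6a19 was called (limma adjusted p = 0.0276) and Slc22a8 was not (0.0510), so that Slc22a8 was called in 1 of 13 alternatives. Slc6a19 met the minimum of 0.1 cRPKM only through the wildtypes, so its direction was tied to its being tested. The fold change of Slc22a17 reversed to -0.034 with the Y-linked covariate. The cause of these changes was not tested.

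It is unknown whether wildtype and mutant libraries sharing a replicate number were handled as pairs. Deviations of same-numbered libraries correlated weakly but positively, at 0.0985, 0.205 and 0.277, and 3 of 6 libraries correlated best with their own number. With so few libraries these values cannot settle whether the numbers mark pairs. With the numbers as a replicate block 109 genes were called higher and 164 lower, among the carriers Slc12a2 and Slc26a7 (limma adjusted p = 0.0407) but not Slc9a9 (0.0504). In the fit from 0.1 cRPKM the block called Slc47a1 (0.0447) in place of Slc22a8 (0.0651). Fat4 was called under all 16 alternatives. Read totals are unknown, and values under 0.1 cRPKM rest on few reads.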

Other observations

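Among cells other than tubules, the marker lists gave values that no carrier result rests on. Of 8 nephron progenitor markers 2 rose (background 0.552%), Eya1 and Osr1, which act in the renal mesenchyme, and the list summed to 307.83 to 348.73 cRPKM in wildtype and 369.2 to 426.01 in mutant libraries. Of 8 stromal markers 1 fell (background 0.877%), the growth factor receptor gene Pdgfra, at 43.97, 39.81 and 41.85 cRPKM in wildtype against 30.37, 29.67 and 29.21 in mutants (limma adjusted p = 0.00427). None of 10 ureteric, 6 endothelial or 6 macrophage markers passed. Adrenal cortex genes summed to 2.13 to 2.4 cRPKM and liver genes to 0.39 to 1.09 over the 6 libraries.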
